A study of Mus musculus with 2 samples.

Results

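The cells described here are the Ibsp- and Mmp13-rich, Dspp-poor mesenchymal barcodes of newborn mouse molar tooth germs. A barcode was selected when it passed the quality filter (at least 500 genes and at most 20% mitochondrial transcripts), held at most 1 UMI (a counted RNA molecule) over 6 genes of epithelial, endothelial and blood cells, reached 20 UMIs of Ibsp plus Mmp13 per 10000, and held at most 1 UMI of Dspp. Of 28918 passing barcodes, 1669 were selected, 644 of 13431 in the library labelled Edarfl/fl and 1025 of 15487 in the library labelled K14cre;Edarfl/fl. These selected cells had been labelled alveolar bone osteoblasts. The values of Ibsp, Mmp13, Dspp and the 6 lineage genes chose them and are given only as a description.

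The study took mandibular first molar germs from newborn C57 black mice. One library came from Edarfl/fl mice, which carry floxed Edar alleles and no Cre, and 1 library from K14cre;Edarfl/fl mice, in which Cre driven by the keratin 14 promoter removes Edar in keratin 14 epithelium; both groups carry the floxed alleles. Single cells were profiled on the BD Rhapsody platform. How many germs a library pooled, and their sex, the labels leave out. With 1 library per group there is no test of the genotype: every comparison below is between these 2 libraries, intervals are 95% and cover counting error only, and a gene is called by size alone. A called gene reached 50 counts per 1000000 summed UMIs (CPM) and 30 UMIs in 1 library, and its CPM plus 5 differed by at least 2-fold. Paired values are given with the Edarfl/fl library first.

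Bone around the developing tooth is laid down by osteoblasts, which need the transcription factors Runx2 and then Sp7, secrete type I collagen, and as they mature add alkaline phosphatase (Alpl), bone sialoprotein (Ibsp), osteopontin (Spp1) and osteocalcin (Bglap). Mmp13 is a collagenase known from bone-forming and bone-remodelling cells. Odontoblasts, which secrete dentin, share much of this matrix repertoire and are marked by Dspp, while the dental follicle that wraps the germ supplies cells to cementum, periodontal ligament and alveolar bone.

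Sequencing depth bears on every value. The libraries held 73375441 and 62158879 UMIs over 13990 and 16029 barcodes. Selected cells had a median of 4030 UMIs and 1813 genes in the Edarfl/fl library and 3012 UMIs and 1496 genes in the K14cre;Edarfl/fl library, and together gave 2866307 and 3469090 UMIs. The libraries shared 4 barcodes, none of them among the selected cells. Cells with Xist and no Y-linked UMI made up 20.8% of all passing barcodes in the Edarfl/fl library and 34.9% in the K14cre;Edarfl/fl library, so the sexes were mixed in unequal shares, and the part of this in any result was not tested except where values within 1 sex are given.

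Edar, the receptor gene that Cre deletes, did not check the labels. Over all passing barcodes it stood at 6.03 CPM in the Edarfl/fl library and 3.53 CPM in the K14cre;Edarfl/fl library. In epithelial barcodes (at least 5 UMIs of Epcam plus Cdh1 and at most 1 of the blood and endothelial genes), where the deletion is meant to act, it was at 10.1 CPM from 25 UMIs in 377 barcodes and 10.2 CPM from 11 UMIs in 179 barcodes. The levels in epithelial barcodes were thus nearly equal. The labels do not name the exons removed, and counted transcript ends outside them would check nothing, so the libraries are named only as they are labelled.

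In the selected cells Edar was hardly found, at 1.05 and 0.577 CPM. An Edar UMI was found in 3 of 644 and 2 of 1025 selected cells (0.466% and 0.195%), against 0.193% and 0.257% of endothelial barcodes. After thinning to 2000 UMIs, 2 of 627 and 0 of 898 selected cells held one, and 0 of 898 allows a share of up to 0.334%; among endothelial barcodes 2 of 890 and 0 of 652 did, and 0 of 652 allows up to 0.460%. These shares are at the level of the endothelial background, so Edar in the selected cells was not detectable above it at this depth. The Cre driver is epithelial, so these counts are no check of the deletion.

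The markers left the osteoblast label unsettled for most of the selected cells. Runx2 was high, at 789.5 CPM (exact Poisson interval 757 to 823) in the Edarfl/fl library and 742 CPM (714 to 771) in the K14cre;Edarfl/fl library, against 202 and 252 CPM in the other lineage-poor barcodes and 56.6 and 67.4 CPM in Dspp-rich odontoblasts. Sp7, the factor acting after Runx2, was lower in the selected cells (114 and 105 CPM) than in the other lineage-poor barcodes (261 and 201 CPM) and in odontoblasts (377 and 381 CPM). Bglap followed the same order, at 35.2 and 26.5 CPM in the selected cells, 113 and 47.6 CPM in the other barcodes and 849.6 and 707 CPM in odontoblasts, though Bglap shares reads with the near-identical Bglap2 and Bglap3. Ifitm5, an osteoblast membrane protein, stood at 47.8 and 36.9 CPM against 189 and 105 CPM in the other barcodes. These other lineage-poor barcodes were not free of odontoblast transcripts. A Dspp UMI was found in 13.4% and 6.33% of them, and a Dmp1 UMI in 13.3% and 6.53%. Odontoblasts were higher in Sp7 and Bglap, so a level below this mixture cannot decide whether the selected cells were osteoblasts. Over all genes, selected cells were higher than the other lineage-poor barcodes in both libraries for 130 of 3513 tested (3.7%) and lower for 144 (4.1%). Summed over the selected cells, Runx2 was thus higher, and Sp7, Bglap and Ifitm5 lower, than in these mixed barcodes. The selected cells are named below by their leading genes.

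Thinned to 2000 UMIs each, 72.1% and 70.2% of selected cells held a Runx2 UMI, 15.5% and 16.9% an Sp7 UMI and 2.39% and 2.23% a Bglap UMI; 17 and 127 shallower cells were left out. Endothelial barcodes, which should lack these genes, gave 3.15% and 5.52% for Runx2, 2.47% and 1.23% for Sp7 and 1.35% and 0.460% for Bglap at median depths of 3538 and 3501 UMIs. Without thinning the shares among selected cells were 85.7% and 79.2% for Runx2, 28.6% and 24.8% for Sp7 and 3.73% and 2.34% for Bglap. The thinned Bglap share overlapped that of endothelial barcodes in its exact interval in the Edarfl/fl library and was above it in the K14cre;Edarfl/fl library (1.37% to 3.42% against 0.0950% to 1.34%), and the Runx2 share was far above it in both.

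The 2 selecting genes lie on different chromosomes: in GENCODE M21 (GRCm38) Ibsp spans chr5:104299171-104311469 and Mmp13 chr9:7272514-7283331, both on the plus strand. The gate joined cells that seldom carried both of its genes. Ibsp alone or with Mmp13 brought in 550 and 863 cells, Mmp13 without enough Ibsp brought in 88 and 156, and both genes passed 20 UMIs per 10000 in only 31 and 77 cells. No Mmp13 UMI was found in 490 and 763 selected cells, and no Ibsp UMI in 52 and 101. The median of Ibsp plus Mmp13 was 51.3 UMIs per 10000 in the Edarfl/fl library and 51.6 in the K14cre;Edarfl/fl library. Just inside the threshold, between 20 and 25 UMIs per 10000, lay 80 and 110 cells, and just outside it, between 15 and 20, lay 66 and 131.

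**Figure D1:**
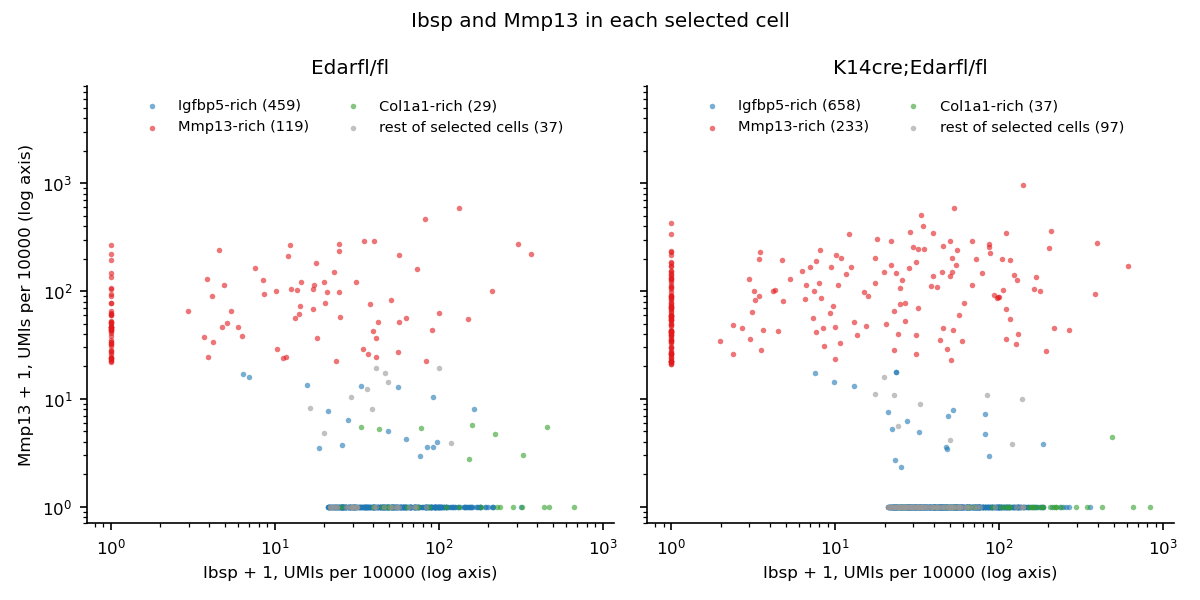
Ibsp (x axis) and Mmp13 (y axis) in UMIs per 10000 plus 1, both on log axes, for each selected cell of the Edarfl/fl (left) and K14cre;Edarfl/fl (right) libraries, coloured by the kind of cell, with the number of cells in brackets. Most cells lie on the lower edge with no Mmp13 UMI. The Mmp13-rich cells lie at or above 20 UMIs per 10000 because the cut was set there.

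After the data were seen, the selected cells were divided in order by 3 further thresholds. Cells with at least 20 Mmp13 UMIs per 10000 (Mmp13-rich) numbered 119 and 233, cells of the remainder with at least 60 Igfbp5 UMIs (Igfbp5-rich) numbered 459 and 658, and cells of what was left with at least 500 Col1a1 UMIs (Col1a1-rich) numbered 29 and 37. The rest numbered 37 and 97. The Igfbp5-rich cells were therefore 71.3% of selected cells in the Edarfl/fl library and 64.2% in the K14cre;Edarfl/fl library. Since the 4 kinds were cut from the cells' own counts, differences between them are a description, and Mmp13, Igfbp5 and Col1a1 levels in them follow from the cut.

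The Igfbp5-rich cells combined Ibsp with genes of growth factor signalling and little mineralizing matrix. Ibsp stood at 6029 and 5756 CPM and Igfbp5, a secreted IGF-binding protein, at 23657 and 25407 CPM. Spon1, a matrix protein of the spondin family, reached 1374 and 1369.8 CPM, against 129 and 156 CPM in the other lineage-poor barcodes and 9.05 and 9.28 CPM in odontoblasts. Pthlh, the parathyroid hormone-related ligand that dental follicle is known to make, stood at 308 and 232 CPM and was nearly absent from Mmp13-rich cells (1.74 and 8.11 CPM). Alpl was low in these cells at 52.9 and 46.2 CPM, as were Spp1 at 6.80 and 13.3 CPM and Ifitm5 at 4.19 and 4.76 CPM. The 10 dental follicle markers other than Igfbp5, which set the cut, summed to 3516 and 3406 CPM here and to 2867 and 2636 CPM in Mmp13-rich cells. They summed to 3564 and 3190 CPM in Col1a1-rich cells and to 2428 and 2624 CPM in the other lineage-poor barcodes. The sum was therefore not particular to Igfbp5-rich cells. Against Mmp13-rich cells single members went both ways. Foxf1, a forkhead factor, was at 517 and 475 against 162 and 136 CPM. Postn, a matricellular protein of periosteum, was at 393 and 366 against 1093 and 959 CPM.

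Set against Mmp13-rich cells, Igfbp5-rich cells were at least 2-fold higher in both libraries for 280 of 3517 genes tested (7.96%) and lower for 248 (7.05%). Among the genes with the greatest excess were Moxd1, a copper monooxygenase-like protein, at 786 and 703 CPM against 3.49 and 10.4 CPM; Apod, a lipid-binding apolipoprotein, at 307 and 319 against 3.49 and 15.1 CPM; and Bcl11b, a zinc-finger transcription factor, at 260.1 and 274 against 6.98 and 13.9 CPM. The laminin genes Lamc3 (178 and 154 against 1.74 and 1.16 CPM) and Lama2 (869.8 and 771 against 48.8 and 33.6 CPM), which build basement membrane, went the same way, as did Hsd11b2, which inactivates glucocorticoids (212 and 185 against 0 and 2.32 CPM). Each of these genes was nearly absent from Mmp13-rich cells or far lower there, in both libraries. Divided instead by the gene that brought a cell into the selection, cells with enough Ibsp were higher than cells selected by Mmp13 for 177 of 3304 genes (5.36%) and lower for 175 (5.3%).

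Signalling lists separated both kinds. Over all genes tested in this comparison, 7.96% were higher in Igfbp5-rich cells and 7.05% lower. Of 19 Wnt genes tested, 11 were higher in Igfbp5-rich cells and 3 lower. The higher ones included the feedback targets Axin2 (271 and 262 against 36.6 and 24.3 CPM), Notum (319 and 267 against 19.2 and 33.6 CPM) and Nkd1 (187 and 153 against 20.9 and 11.6 CPM) and the nuclear factor Lef1 (274 and 281 against 10.5 and 41.7 CPM). The lower ones included Sfrp2 and Sfrp4, secreted Wnt-binding proteins, with Sfrp2 at 24.1 and 29.1 CPM against 1144 and 1424 CPM in Mmp13-rich cells and Sfrp4 at 1.57 and 1.43 against 356 and 442 CPM. Among Hedgehog genes, the targets Ptch1 (1124 and 1121 against 323 and 294 CPM) and Gli1 (273 and 275 against 92.4 and 101 CPM) were higher in Igfbp5-rich cells, and Gas1, a surface co-receptor, was lower. In the BMP and TGF-beta list 5 of 17 were higher, among them Bmp3 (811 and 622 against 55.8 and 64.9 CPM), and 1 was lower. Feedback targets of Wnt and Hedgehog signalling were thus higher in the same kind of cell.

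The Mmp13-rich cells carried proteases, osteopontin and the osteoclast ligand Tnfsf11. Mmp13 stood at 8554 and 10338 CPM. Mmp9, a gelatinase, was at 523 and 642 CPM against 32.4 and 17.6 CPM in Igfbp5-rich cells, and Spp1, a phosphoprotein of bone matrix, at 4566 and 5733 CPM against 6.80 and 13.3 CPM. Tnfsf11, the ligand (RANKL) that drives osteoclast formation, was at 115 and 118 CPM against 0.523 and 1.91 CPM. Alpl, at 584 and 515 CPM, was also higher than in Igfbp5-rich cells. Over all genes tested, 7.05% were higher in Mmp13-rich than in Igfbp5-rich cells and 7.96% lower. Of 13 genes of the osteoclast-directing list 5 were tested: Tnfsf11 and the chemokine Cxcl12 (305 and 498 against 95.8 and 108 CPM) were higher in Mmp13-rich cells and Wnt5a, a Wnt ligand, was lower (76.7 and 99.7 against 896 and 842 CPM). The list as a whole summed to 781 and 1096 CPM, below the 1219.9 and 1186 CPM of Igfbp5-rich cells, and Il34, Ccl9, Cxcl5 and Il6 were at 0 in Mmp13-rich cells of both libraries.

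At 2000 UMIs per cell, 53.1% and 51.0% of Mmp13-rich cells held an Mmp9 UMI, 36.3% and 43.2% an Spp1 UMI and 12.4% and 17.2% a Tnfsf11 UMI; 6 and 41 shallower cells were left out. Endothelial barcodes gave 0.449% and 0.613% for Mmp9, 0.899% and 0.920% for Spp1 and 0% and 0.307% for Tnfsf11, where 0 of 890 allows a share of up to 0.337%. Median depths were 4419 and 3009 UMIs in Mmp13-rich cells. Unthinned, the shares in Mmp13-rich cells were 63.9% and 63.1% for Mmp9, 43.7% and 46.4% for Spp1 and 32.8% and 30.9% for Tnfsf11. Spp1 was therefore detected in fewer of these cells than Mmp9, though in many more than among endothelial barcodes. Spp1 was not particular to Mmp13-rich cells. At 2000 UMIs per cell, 12 of 29 and 20 of 34 Col1a1-rich cells held an Spp1 UMI (41.4% and 58.8%). Without the top cell of each library, its level in Col1a1-rich cells was 3357 and 2387 CPM. Mmp9 is also an osteoclast gene; the 8 osteoclast markers summed to 856 and 913 CPM in Mmp13-rich cells against 205 and 180.1 CPM in Igfbp5-rich cells. Most of the sum beside Mmp9 was Ctsk, a collagen-cleaving cathepsin (329.6 and 265 against 171 and 161 CPM). Calcr and Dcstamp were at 0 in Mmp13-rich cells of both libraries, and Acp5, which makes the acid phosphatase of osteoclasts, was at 3.49 and 3.48 CPM. The part of osteoclasts in these values was not tested.

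Further genes higher in Mmp13-rich than in Igfbp5-rich cells were Aldh1a2, a retinoic acid-synthesizing enzyme (160.4 and 187 against 2.62 and 0.476 CPM), and the transcription factor Maf (811 and 708 against 37.2 and 36.2 CPM). The bone matrix list had 9 of 15 tested genes higher in Mmp13-rich cells, and the mineralization list 5 of 7, beside 7.05% of all genes tested. H19, an imprinted non-coding RNA, stood at 8451 and 8339 CPM against 1068 and 966 CPM. Serpine2, a protease inhibitor, was at 2122 and 2026 CPM against 194 and 187 CPM. For both genes the libraries gave nearly the same level.

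Spp1 was high in both Mmp13-rich and Col1a1-rich cells. Promoter sequences of Mmp13 and Spp1 are shown because these genes were high together in Mmp13-rich cells, beside Runx2. Each is the 250 bases before the RefSeq start (GRCm38.p6), read 5' to 3' on the coding strand, and both genes lie on the plus strand: Mmp13 at chr9:7272264-7272513 and Spp1 at chr5:104434861-104435110, the upstream of its 2 starts. Capitals mark the core letters TGTGGT bound by RUNX factors (ACCACA when read on the other strand) and the AP-1 letters TGANTCA.
Mmp13: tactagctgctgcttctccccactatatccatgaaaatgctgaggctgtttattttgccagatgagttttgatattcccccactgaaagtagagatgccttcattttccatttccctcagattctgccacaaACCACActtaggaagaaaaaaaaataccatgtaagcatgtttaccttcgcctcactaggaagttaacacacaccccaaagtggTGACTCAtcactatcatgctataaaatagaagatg
Spp1: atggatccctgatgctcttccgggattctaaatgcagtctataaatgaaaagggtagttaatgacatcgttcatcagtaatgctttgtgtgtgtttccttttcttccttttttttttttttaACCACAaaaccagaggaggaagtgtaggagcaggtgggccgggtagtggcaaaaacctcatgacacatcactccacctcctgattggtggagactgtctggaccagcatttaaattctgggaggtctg
The RUNX letters begin 118 bases before the start in Mmp13 and 128 bases before it in Spp1. The AP-1 letters begin 35 bases before the start of Mmp13 and are not in the Spp1 window, and the matches do not overlap. Of the other windows searched, the RUNX letters are in those of Bglap, Runx2 and 1 of 2 Dmp1 starts, and in none of Ibsp, Igfbp5, both Alpl starts and the downstream Spp1 start. The AP-1 letters are in none of these. On either strand, TGTGGT is in 14.05% and TGANTCA in 6.75% of all 32851 RefSeq windows of this length. Runx2 itself was at 813 and 625 CPM in Mmp13-rich and 876 and 878 CPM in Igfbp5-rich cells.

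The Col1a1-rich cells were few, 29 and 37, and were the kind in which later osteoblast genes were high. Ibsp reached 18186 and 19410.4 CPM. Bglap stood at 385 CPM (303 to 483) and 421 CPM (326 to 536), against 3.14 and 2.38 CPM in Igfbp5-rich cells. Ifitm5 stood at 503 CPM (409 to 613) and 351 CPM (264 to 457), against 4.19 and 4.76 CPM. Sp7 was at 318 and 364 CPM and Alpl at 632 and 708 CPM. Tnn, a tenascin of bone and periosteum, reached 1879.7 and 1780.2 CPM against 159 and 109 CPM in Mmp13-rich cells. Tnn is also among the dental follicle markers summed above. Runx2, at 272 and 459 CPM, was lower than in the other kinds named so far, so the order of Runx2 across kinds ran against that of Sp7. Over all genes, Col1a1-rich cells were higher than Igfbp5-rich cells in both libraries for 136 of 3146 (4.32%) and lower for 813 (25.8%), and higher than Mmp13-rich cells for 90 of 2809 (3.2%) and lower for 452 (16.1%).

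Single cells weighed on these sums. Of 75 Bglap UMIs in the Edarfl/fl library 36 came from 1 cell, and of 66 in the K14cre;Edarfl/fl library 30 did. Bglap was found in 10 of 29 cells in the first library and 6 cells in the second. Ifitm5 was more evenly spread, in 24 and 20 cells. Col2a1, the fibrillar collagen of cartilage, stood at 452 and 498 CPM, but 48 of 88 and 37 of 78 UMIs were from 1 cell in each library. Of 12 chondrocyte markers 6 and 7 were at 0 in Col1a1-rich cells, and their summed level was 668 and 804 CPM.

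**Figure D2:**
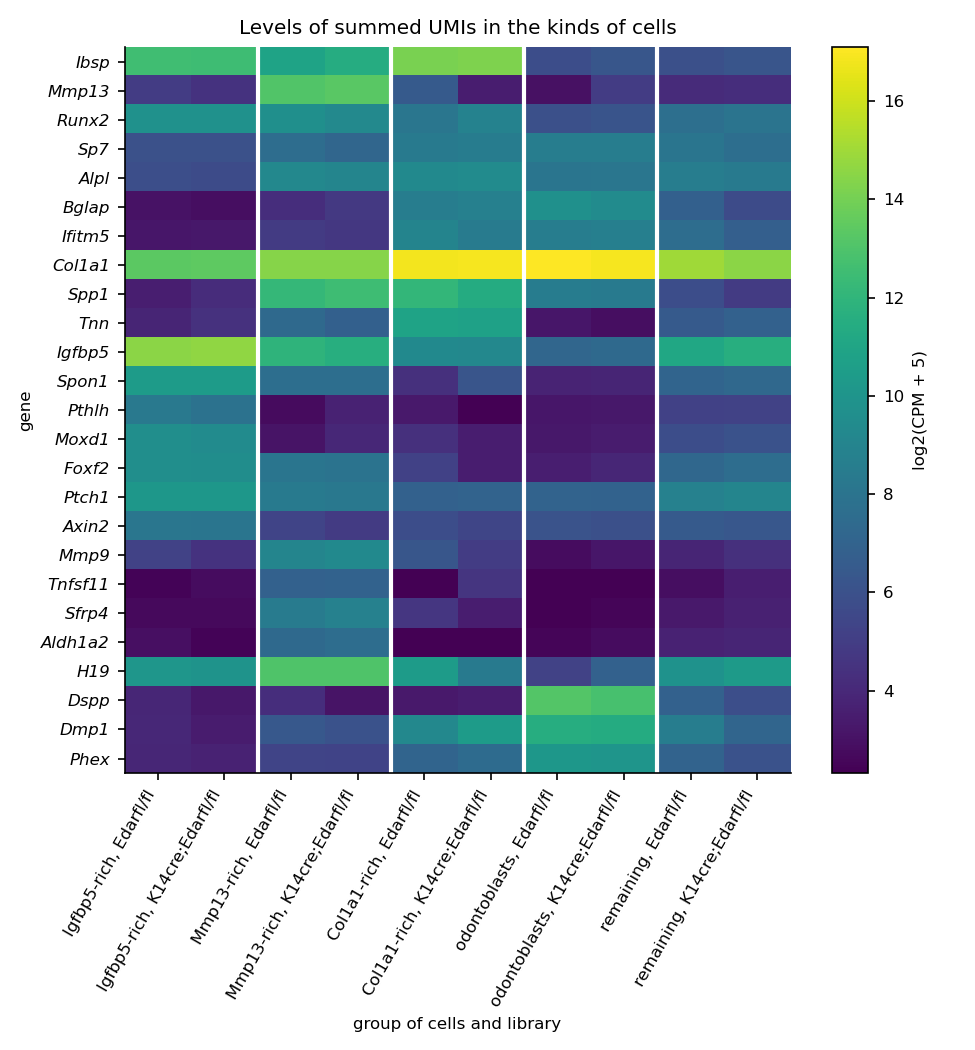
Level of 25 genes (rows) as log2 of CPM plus 5 in the Igfbp5-rich, Mmp13-rich and Col1a1-rich selected cells, in odontoblasts and in the other lineage-poor barcodes (remaining), 1 column per library. Mmp9, Tnfsf11, Sfrp4 and Aldh1a2 are brightest in the Mmp13-rich columns, Spon1, Pthlh and Moxd1 in the Igfbp5-rich columns, and Bglap and Ifitm5 are dark in both of these kinds.

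Against odontoblasts (956 and 412 lineage-poor barcodes with at least 20 Dspp UMIs per 10000 and at least 2 Dspp UMIs), the selected cells as a whole were higher in both libraries for 978 of 3581 genes tested (27.3%) and lower for 425 (11.9%). Igfbp5-rich cells alone were higher for 1132 of 3642 (31.1%) and lower for 493 (13.5%), and Mmp13-rich cells for 763 of 3362 (22.7%) and 421 (12.5%). Genes of matrix secretion were among the lower ones. Of 21 bone matrix genes tested 13 were lower and 4 higher, of 10 mineralization genes 7 were lower and 1 higher, and of 19 genes for folding and secreting collagen 11 were lower and none higher. Col1a1 stood at 20999 and 19310.3 CPM against 140464 and 122854 CPM, and Serpinh1, the collagen chaperone, at 1404 and 1215 against 3993 and 3837 CPM. All 6 osteocyte-list genes tested were lower, among them Dmp1, an acidic matrix phosphoprotein (65.2 and 83.3 against 2939 and 2695 CPM), and Phex, a phosphate-regulating peptidase (24.4 and 22.8 against 1113 and 1059 CPM).

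The higher genes included receptors, ligands and proteases. The list counts below stand beside 27.3% of all genes tested that were higher in the selected cells and 11.9% lower. Of 13 genes of the PTH and IGF axis 10 were higher and none lower, with Igf1 at 635 and 719 against 10.8 and 10.5 CPM, Igfbp4 at 2509 and 2847 against 77.6 and 105 CPM and Pth1r, the parathyroid hormone receptor, at 83.4 and 67.5 against 17.9 and 20.2 CPM. Hedgehog genes were higher for 6 of 7, with Ptch1 at 843 and 807 against 124 and 120.3 CPM. Proteases and their inhibitors were higher for 10 of 16, Wnt genes for 12 of 20 with 2 lower, and genes of S phase for 5 of 5. Foxf2, a forkhead factor, stood at 585 and 548 against 7.04 and 10.1 CPM, and Lepr, the leptin receptor, at 277 and 215 against 1.38 and 2.02 CPM. Top2a, a marker of dividing cells, was at 136 and 118 against 6.66 and 8.88 CPM. Median depth differed as well, 4030 and 3012 UMIs in selected cells against 7674.5 and 5224.5 in odontoblasts, and with both thinned to 2000 UMIs the counts were 946 higher and 416 lower.

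**Figure D3:**
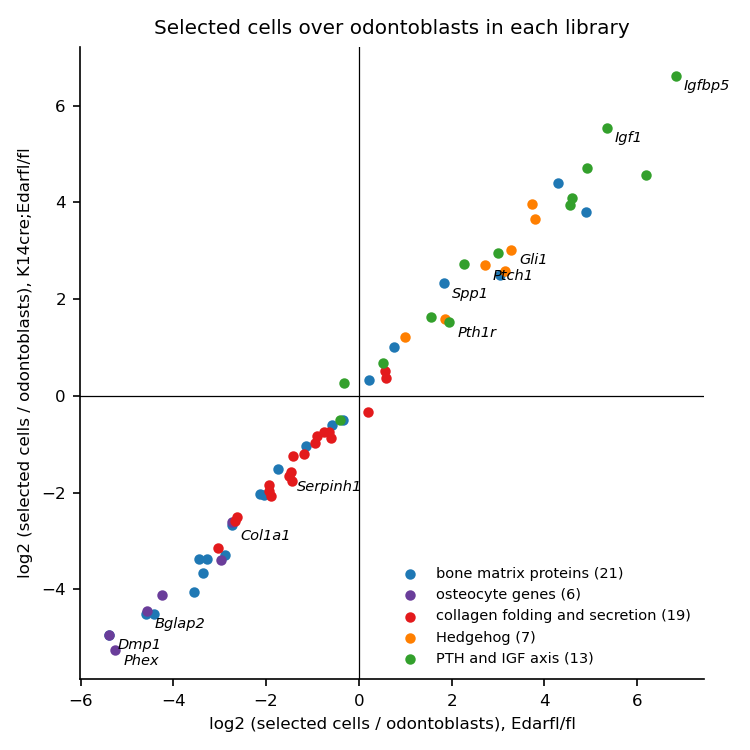
Log2 ratio of selected cells over odontoblasts in the Edarfl/fl library (x axis) and in the K14cre;Edarfl/fl library (y axis) for genes of 5 lists, with the number of genes tested in brackets; each point is a gene and 11 genes are named. Osteocyte and collagen-folding genes lie mostly below 0 and Hedgehog and IGF-axis genes mostly above 0 in both libraries.

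Enamel genes also differed. Amelx, which encodes an enamel protein of epithelial ameloblasts, was at 13.3 and 54.8 CPM in selected cells against 1299.8 and 3831 CPM in odontoblasts, and Ambn, another enamel gene, at 27.6 and 38.9 against 897 and 971 CPM. Both groups were limited to 1 UMI over the 6 lineage genes. Whether free RNA or joined cells brought these transcripts in was not tested.

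Col1a1-rich cells were set against odontoblasts on their own, since Col1a1 was high in both (119005 and 120553 against 140464 and 122854 CPM). They were higher than odontoblasts in both libraries for 111 of 2368 genes tested (4.69%) and lower for 285 (12%). Of 19 collagen-folding genes 2 were lower and 1 was higher. Tnn (1879.7 and 1780.2 against 4.40 and 2.42 CPM), Col2a1 (452 and 498 against 0.126 and 0.404 CPM), Postn (1140.1 and 868 against 15.6 and 36.7 CPM), and Pth1r (288 and 211 against 17.9 and 20.2 CPM) were higher. Lower genes included Phex (128 and 172 against 1113 and 1059 CPM) and Mmp20, an enamel and dentin proteinase (no UMI in either library against 130.3 and 129 CPM). Of 15 genes of the BMP and TGF-beta list 8 were lower and 1 higher. The ligand gene Bmp2 was at 87.3 and 128 against 338 and 263 CPM and Bmp7 at 5.14 and 12.8 against 175 and 161 CPM.

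The share of selected cells was larger in the library labelled K14cre;Edarfl/fl. They made up 4.79% of passing barcodes (exact binomial interval 4.44% to 5.17%) in the Edarfl/fl library and 6.62% (6.23% to 7.02%) in the K14cre;Edarfl/fl library, a difference of 1.82 percentage points (1.06 to 2.58, from the ends of both intervals). Among lineage-poor barcodes the shares were 6.39% and 8.13%. Odontoblasts were 7.12% and 2.66%. Shares add up to a whole, so more cells of 1 group and fewer of another cannot be told apart. With 1 library per group, genotype, pooling of germs and dissection cannot be told apart.

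**Figure D4:**
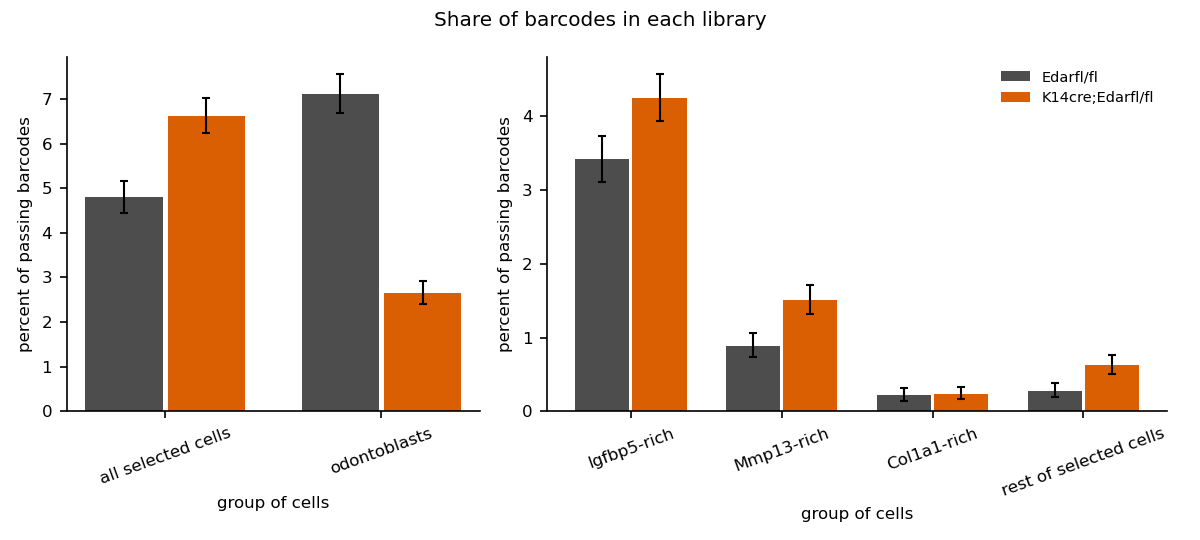
Percent of passing barcodes (y axis) in all selected cells and odontoblasts (left) and in the 4 kinds of selected cells (right), for the Edarfl/fl (grey) and K14cre;Edarfl/fl (orange) libraries; bars are shares and error bars are 95% exact binomial intervals for counting error. The selected cells are 4.79% and 6.62% of barcodes, and odontoblasts 7.12% and 2.66%.

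The Mmp13-rich cells went from 0.886% (0.735% to 1.06%) to 1.504% (1.32% to 1.71%) of passing barcodes, 1.70 times. The Igfbp5-rich cells went from 3.42% to 4.25%, 1.24 times, and the Col1a1-rich cells from 0.216% (0.145% to 0.310%) to 0.239% (0.168% to 0.329%), whose intervals overlap. The rest of the selected cells went from 0.275% (0.194% to 0.380%) to 0.626% (0.508% to 0.764%). At 2.27 times, this was the largest ratio of the 4 kinds. Within Xist-only cells the selected share was 5.01% and 7.38%, and within cells with only Y-linked UMIs it was 4.65% and 6.19%. Mmp13-rich cells were 1.32% and 2.44% of Xist-only cells and 0.559% and 0.939% of Y-linked-only cells, higher in the library labelled K14cre;Edarfl/fl in both. The Y-linked-only shares came from 29 and 35 cells, and their intervals (0.375% to 0.802% and 0.655% to 1.30%) overlap. Xist-only cells were 31.1% and 56.7% of Mmp13-rich cells, above their share of all barcodes in each library.

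Few genes differed between libraries within the selected cells. Of 3482 genes tested 7 were higher (0.201%) and 0 lower (0%) by at least 2-fold in the K14cre;Edarfl/fl library. None of the 17 bone matrix, 14 osteoblast transcription factor or 8 mineralization genes tested was called. Ibsp stood at 5904 and 5514 CPM, Runx2 at 789.5 and 742 CPM and Sp7 at 114 and 105 CPM, with log2 differences of -0.10, -0.09 and -0.12. Mmp13 was at 1753 and 2592 CPM, a log2 difference of 0.56, beside the larger share of Mmp13-rich cells in that library. The median log2 difference was -0.12 over the bone matrix genes and -0.01 over all genes tested.

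The called genes were stress, immediate early and sex-linked genes and 1 enamel gene. Hspa1a, an inducible heat shock protein, was at 42.2 and 114 CPM and its near-identical copy Hspa1b, whose reads cannot be fully separated from it, at 33.5 and 75.2 CPM. Trib1, a pseudokinase, was at 56.5 and 131 CPM (log2 1.14, count ratio 1.93 to 2.79) and Egr3, an immediate early transcription factor, at 22.0 and 50.7 CPM (log2 1.05, 1.72 to 3.13). Mt2, a metal-binding metallothionein, was at 20.2 and 75.8 CPM (log2 1.68, 2.81 to 5.07). Xist was at 223 and 464 CPM, beside the larger share of Xist-only cells. Mt2 was found in 26 and 84 cells, but Col1a1-rich cells gave 18 of its 58 UMIs in the Edarfl/fl library and 122 of 263 in the K14cre;Edarfl/fl library, from 7 and 13 cells. In Igfbp5-rich cells Mt2 was under the minimum level, at 7.85 and 21.0 CPM.

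Amelx rested on 1 cell. It stood at 13.3 and 54.8 CPM, but 134 of its 190 UMIs in the K14cre;Edarfl/fl library were from a single Igfbp5-rich barcode, and without the top cell of each library the levels were 11.6 and 16.2 CPM (log2 0.35 in place of 1.71). With at least 1000 genes and at most 10% mitochondrial transcripts required, the sign turned, to -0.19.

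Immediate early genes, which cells switch on within minutes of a stimulus, leaned to the library labelled K14cre;Edarfl/fl as a list. In all selected cells 24 of 26 tested were above 0, beside 47.9% of all genes tested, with a median log2 difference of 0.49. In Igfbp5-rich cells 23 of 25 were above 0 with a median of 0.62, beside 47.5% and a median of -0.01 over all genes tested. Of these 25 genes 6 were called, beside 0.336% of all 3570 genes. Csrnp1, a nuclear protein, was at 187 and 421 CPM (log2 1.15, count ratio 1.98 to 2.55); Btg2, a growth-arrest gene, at 101 and 218 CPM (log2 1.07, 1.82 to 2.57); and Errfi1, a feedback inhibitor of the EGF receptor, at 101 and 216 CPM (log2 1.06, 1.80 to 2.54). Trib1, Egr3 and Maff were the other 3.

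The same list leaned the same way outside the selected cells. The median was 0.47 in odontoblasts (19 of 21 above 0) and 0.59 in the other lineage-poor barcodes (24 of 26), while in Mmp13-rich cells it was 0.11 (17 of 24) and in Col1a1-rich cells 0.41 (13 of 14). Csrnp1 was 1.15 in Igfbp5-rich cells, 0.37 in Mmp13-rich cells, 0.87 in odontoblasts and 1.16 in the other barcodes on the log2 scale. The list leaned upward in every group compared, least in Mmp13-rich cells; whether Mmp13-rich cells differed from the others was not tested.

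**Figure D5:**
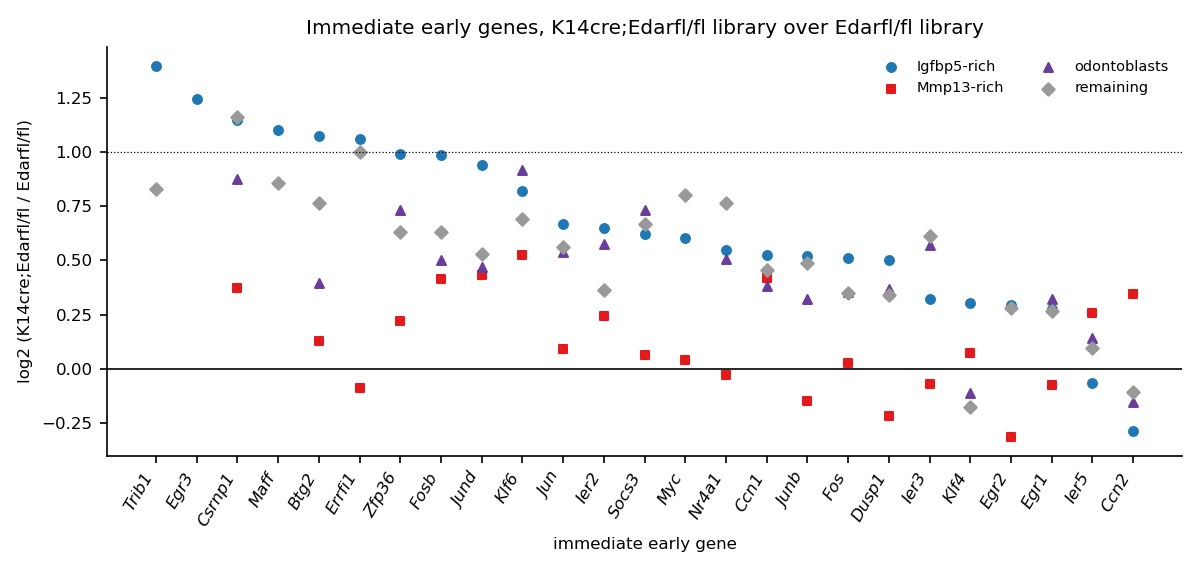
Log2 ratio of the K14cre;Edarfl/fl over the Edarfl/fl library (y axis) for each immediate early gene tested in Igfbp5-rich cells (x axis, ordered by that value), shown for Igfbp5-rich cells, Mmp13-rich cells, odontoblasts and the other lineage-poor barcodes (remaining); the solid line is 0, the dotted line is a 2-fold difference, and a missing point is a gene under the minimum level in that group. Igfbp5-rich cells lie above 0 for 23 of 25 genes, and Mmp13-rich cells mostly lie below them.

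In all, Igfbp5-rich cells had 12 genes higher (0.336% of 3570) and 1 lower (0.028%). Beside the immediate early genes, Hspa1a, Xist and Amelx, the higher genes were Cebpb, a leucine-zipper factor (71.7 and 153 CPM, log2 1.05), Elf1, an ETS factor (60.7 and 129 CPM, 1.03), and Pim1, a kinase (336 and 684 CPM, 1.01). Prtg, encoding the surface protein protogenin, was the lower gene, at 60.2 and 20.5 CPM (log2 -1.35, count ratio 0.234 to 0.487), found in 35 and 28 cells. Igf1 (0.25), Pthlh (-0.40) and Bmp3 (-0.38) were not called. The leading genes of this kind thus stayed within 2-fold between libraries. Of 18 genes of the Edar pathway and NF-kB list 5 were tested and 0 were called. Beside 0.336% higher and 0.028% lower over all genes, 0 of 5 shows nothing particular to this list. Edar itself was under the minimum level, found in 2 and 0 Igfbp5-rich cells.

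Mmp13-rich cells had 15 genes higher (0.445% of 3369) and 7 lower (0.208%). None was a protease, a bone matrix gene or an osteoclast-directing gene: Mmp9 differed by 0.29, Spp1 by 0.33 and Tnfsf11 by 0.04 on the log2 scale. The called genes were low, for example Ranbp2, a nuclear pore protein (19.2 and 64.9 CPM, 11 and 56 UMIs), and Atf3, a stress-response factor (34.9 and 91.5 CPM, 20 and 79 UMIs). Atf3 turned to -0.42 when cells were selected by Ibsp alone.

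Among Col1a1-rich cells 13 genes were higher (1.65% of 787) and 21 lower (2.67%), on 29 and 37 cells. The metallothioneins Mt1 (15.4 and 191 CPM) and Mt2 (92.4 and 778 CPM) were higher; Mt1 rested on 3 and 30 UMIs, a ratio with a counting interval of 3.86 to 63.6, and Mt2 on 18 and 122. Tnfrsf11b, the decoy receptor (osteoprotegerin) for the osteoclast ligand, was at 41.1 CPM (17.7 to 81.0) and 204 CPM (139.7 to 288), from 8 and 32 UMIs in 7 and 11 cells. Dmp1 was at 591 and 1391 CPM, from 10 and 9 cells, of which 1 held 46 of 115 UMIs and 62 of 218 UMIs. H19 was lower at 1382 and 319 CPM, but 178 of 269 UMIs in the Edarfl/fl library were from 1 cell; without the top cells the levels were 484 and 231 CPM (log2 -1.05 in place of -2.10). Sp7 (0.19), Alpl (0.16), Bglap (0.13) and Ifitm5 (-0.51) were not called.

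The rest of the selected cells, 37 and 97, had the largest share of genes higher among the 4 kinds, with 115 genes higher (6.09% of 1888) and 27 lower (1.43%). Crabp1, a retinoic acid-binding protein, was at 160.2 and 801 CPM and Gldn, a surface protein known from nerve, at 64.1 and 431 CPM, both higher in the K14cre;Edarfl/fl library, while Acta2, smooth muscle actin, was at 219 and 17.1 CPM and Mmp9 at 272 and 85.6 CPM, both lower. Against Igfbp5-rich cells the rest were higher in both libraries for 50 of 3118 genes (1.6%) and lower for 211 (6.77%). The kind is a remainder. Whether its make-up differed between libraries, or a few cells carried these genes, was not tested.

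Odontoblasts and the other lineage-poor barcodes, compared in the same way, had 11 genes higher and 0 lower (0.425% and 0% of 2591) and 6 higher and 4 lower (0.169% and 0.113% of 3541). The number of genes called in the selected cells was of the same small order. Xist, Amelx and Hspa1a were called in both selected cells and odontoblasts, 3 of the 7 genes higher in selected cells and 3 of the 11 higher in odontoblasts. None of the 7 was called in the other barcodes. With 0.169% of genes called higher there, this marks no contrast. As given above, immediate early genes leaned the same way in those barcodes.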

How the data were processed

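Per the labels, single cells of newborn molar germs were captured on the BD Rhapsody platform, and the submitters' processing notes name STARsolo and the mm10 build, with no version. The deposited matrices hold raw UMI counts per gene and barcode, 31253 features, of which 31107 matched the GENCODE M21 annotation. What the authors filtered before deposit is not given in the sources used here. Per cell type, counts were summed per library, scaled to counts per 1000000 UMIs of those sums (CPM), and compared as log2 of CPM plus 5. Depth was 73375441 and 62158879 UMIs. With 1 library per group no test was possible: calls are by size (at least 50 CPM and 30 UMIs in 1 library and a 2-fold difference). Intervals are exact Poisson, conditional binomial or Clopper-Pearson, at 95% and for counting error only. Shares of cells with a UMI were recomputed after thinning each cell to 2000 UMIs.

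The members, gene lists and alternatives were chosen with earlier results of these data known. The 3 thresholds that divide the selected cells (20 Mmp13, 60 Igfbp5 and 500 Col1a1 UMIs per 10000) were set after seeing the data. Genes named are up to 12 called genes each way per comparison and, per list, called genes and those with the highest level; genes outside this rule were chosen after their values were seen. No doublets were removed. Scrublet, run through scanpy 1.11.5, called 178 of 13431 and 240 of 15487 barcodes (1.33% and 1.55%), 9 and 10 of them selected cells, and removing them was an alternative. Others changed the barcode filter, the gate, the lineage limit, the scaling, the pseudocount, the minimum level and the weight of each kind of cell, or kept cells of 1 sex. The calling by size was tried on simulated counts with counting error only. These held no variation between libraries or in expression between cells, so they do not show how the calls behave under it. Promoter sequences came from RefSeq (GRCm38.p6). Python 3.11.15, numpy 2.4.6, scipy 1.17.1 and pandas 2.3.3 were used.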

Additional observations from a re-analysis of the deposited data

Results flagged for a closer look

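Among Col1a1-rich cells (29 in the Edarfl/fl library and 37 in the K14cre;Edarfl/fl library) 3 genes differed between libraries in the direction opposite to another group of cells, each by at least 2-fold in both. H19, an imprinted non-coding RNA, had a log2 difference (K14cre;Edarfl/fl over Edarfl/fl) of -2.10 in Col1a1-rich cells and 1.71 in odontoblasts. Leaving out the cell with the most H19 UMIs in each library moved the Col1a1-rich value to -1.05. Pappa2, a protease that cuts IGF-binding proteins, was at -1.16 in Col1a1-rich cells and 1.43 in the other lineage-poor barcodes. It rested on few UMIs, 22 of 40 from 1 cell, and was -0.35 without the top cells. Dmp1, an acidic phosphoprotein of bone and dentin, was at 1.23 in Col1a1-rich cells and -1.45 in the other barcodes, and 1.43 without the top cells. With 1 library per group these opposite directions were not tested.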

How the results depend on the processing

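No paired analysis was possible because each group has 1 library; leave-one-out was not possible for the same reason. Of the main counts and the share, 128 values under alternatives moved little and 40 moved. The other values were single genes, list medians, gene counts of Mmp13-rich and Col1a1-rich cells, and shares of Mmp13-rich and Igfbp5-rich cells. Of these, 864 were counted as unchanged, 223 genes fell inside the 2-fold limit, 21 values moved and 3 turned. Unchanged meant the same direction and side of the 2-fold limit for a gene and within 1.5 times for a count. For a median it meant a small shift, and for these shares the same direction only. Counts against odontoblasts and between cells selected by Ibsp and by Mmp13 stayed within 1.5 times under every alternative run. The counts between libraries were small and moved easily; with no minimum level more low genes enter, with a minimum of 100 CPM fewer do, and cells of 1 sex are fewer. Otherwise the cause was not tested. The share difference of 1.82 percentage points became 2.84 with the gate at 10 UMIs per 10000.

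In selected cells, the 7 higher genes became 12 with Ibsp alone as the gate, 3 with a 20 CPM pseudocount, 27 with no minimum level, 3 with a minimum of 100 CPM, 26 in Xist-only cells and 14 in Y-linked-only cells. The 0 lower genes became 1 with Ibsp alone, 2 after thinning, 10 with no minimum level, 11 in Xist-only cells and 7 in Y-linked-only cells. In Igfbp5-rich cells, the 12 higher genes became 23 after thinning, 20 and 4 with 1 and 20 CPM pseudocounts, 32 with no minimum level and 97 in Xist-only cells. The 1 lower gene became 2 under each of the stricter filter, 0 lineage UMIs, thinning, the total without mitochondrial and top genes, and a 1 CPM pseudocount. It became 3 with the gate at 40 UMIs per 10000, 0 with a pseudocount of 20 CPM or a minimum of 100 CPM, 31 with no minimum level, 10 in Xist-only cells and 15 in Y-linked-only cells.

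In odontoblasts, the 11 higher genes became 4 with 0 lineage UMIs, 6 with a 20 CPM pseudocount, 39 with no minimum level and 6 with a minimum of 100 CPM. The 0 lower genes became 1 with 0 lineage UMIs, with the total without top genes or with a 1 CPM pseudocount, and 4 with no minimum level. In the other lineage-poor barcodes, the 6 higher and 4 lower genes became 2 and 1 with a 20 CPM pseudocount, and the 6 higher became 16 with no minimum level and 3 with a minimum of 100 CPM. Amelx turned to -0.19 in selected cells and to -0.075 in Igfbp5-rich cells under the stricter filter (at least 1000 genes and at most 10% mitochondrial transcripts), and Atf3 in Mmp13-rich cells to -0.42 with Ibsp alone as the gate. Depth limited low genes most: 30 UMIs in 1 library were needed for a call, and Col1a1-rich cells left 787 genes to compare.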
